A study of Mus musculus with 8 samples.

Results

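The genes described here are 10 mouse genes of DNA replication licensing and S phase, out of 28785 genes listed in any of 4 RNA-seq libraries. They were taken by Ensembl identifier from a given list of names: Cdc45, the ring genes Mcm2 to Mcm7, Pcna, Ccne1 and Cdc6. The list was chosen by the heat shock values of Cdc45, which had been seen to be higher in chromatin but not in cytoplasm, so the heat shock values below describe the genes and test nothing. Mouse embryonic fibroblasts (connective tissue cells cultured from embryos) of genotype TSC2+/+ on the C57BL/6J strain gave all libraries. One pair of libraries came from cells without heat shock, and the other from cells kept at 42 °C for 1 h and then at 37 °C for 3 h. Each condition was separated into a chromatin pellet and a cytoplasmic fraction, with 1 library each. No difference between libraries therefore has a replicate check, and no test was made. The other 4 of 8 samples of the series, chromatin libraries immunoprecipitated for m6A (a methylated adenosine of RNA) and their inputs, were not analysed here.

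Before a cell copies its DNA, the origin recognition complex, Cdc6 and Cdt1 load the ring of Mcm2 to Mcm7 onto origins, a step called licensing. At the start of S phase, kinases that include cyclin E with its partner Cdk2 lead to the joining of Cdc45 and the GINS complex to the ring, which makes the active helicase. Pcna is the sliding clamp that holds DNA polymerases on the template. Many of these genes are known targets of E2F transcription factors and are transcribed in proliferating fibroblasts.

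The values are RPKM (reads per length of the gene and per library size). The length behind each value was recovered from the RPKM values and was close to the whole gene span with introns. It equalled the RefSeq span for Mcm2 (15307 bp, chr6:88883474-88898780) and differed by 15 bp for Cdc45 (31541 bp; RefSeq span chr16:18780447-18811972). The poorest matches were Mcm7 (7840 bp against a span of 7529 bp) and Pcna (4153 bp against 3895 bp). For Mcm4 the recovered length of 6752 bp was multiplied by 2 because the product, 13504 bp, equals the RefSeq span (chr16:15623897-15637400), so this match was chosen, and its read counts rest on it. Spliced RNA of genes with long introns is understated by such values, so levels are compared between libraries for the same gene. Ratios of chromatin to cytoplasm can still carry this effect. In unstressed cells their median log2 value was 0.24 for spans of 1 to 5 kb and 3.01 for spans over 100 kb. Total reads were 18364642 in unstressed chromatin, 19536459 in chromatin after heat shock, 8292312 in unstressed cytoplasm and 11131382 in cytoplasm after heat shock. The 10 genes with the highest mean RPKM took 16.1%, 25.7%, 53.0% and 57.4% of these reads. Every RPKM is relative to its library's own total, so a gene with more RNA cannot be told apart from other genes with less. In bulk fractions, more cells expressing a gene and more RNA per cell cannot be told apart either. The fibroblast, fraction and heat shock markers were not checked, since the tables used here do not pair Ensembl identifiers with names.

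The regions before 3 of the genes are shown as examples. Mcm3 and Mcm6 are 2 of the 9 genes at least 2-fold higher in chromatin after heat shock, and Ccne1 was not. They are the 250 bases before the annotated start in RefSeq (build GRCm38.p6), each on the minus strand at chr1:20820313-20820562, chr1:128359706-128359955 and chr7:38107491-38107740, and written 5′ to 3′ along the gene. None overlaps another annotated gene span. Capitals mark E2F words (TTTCGCGC, TTTGGCGC, TTTCCCGC or TTTGCCGC, both strands) and the CCAAT word bound by NF-Y (both strands).
Mcm3: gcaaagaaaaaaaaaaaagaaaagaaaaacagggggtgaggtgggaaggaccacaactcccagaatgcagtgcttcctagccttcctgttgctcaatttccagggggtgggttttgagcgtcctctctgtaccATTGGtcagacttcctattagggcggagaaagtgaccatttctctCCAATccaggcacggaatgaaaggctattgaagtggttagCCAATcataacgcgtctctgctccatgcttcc
Mcm6: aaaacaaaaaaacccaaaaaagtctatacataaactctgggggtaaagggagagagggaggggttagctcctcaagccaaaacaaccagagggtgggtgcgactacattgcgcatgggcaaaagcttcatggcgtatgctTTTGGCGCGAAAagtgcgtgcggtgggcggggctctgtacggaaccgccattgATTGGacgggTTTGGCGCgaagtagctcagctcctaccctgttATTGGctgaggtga
Ccne1: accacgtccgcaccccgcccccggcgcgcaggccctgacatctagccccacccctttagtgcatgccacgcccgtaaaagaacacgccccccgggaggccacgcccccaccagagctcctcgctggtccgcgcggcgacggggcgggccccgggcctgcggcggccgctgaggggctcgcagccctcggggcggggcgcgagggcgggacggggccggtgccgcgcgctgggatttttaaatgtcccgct

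The Mcm6 window held 3 E2F words, 2 of which overlap, and 2 CCAAT words. The Mcm3 window held 3 CCAAT words and no E2F word. The Ccne1 window held neither, but had 4 GGGCGG words (the Sp1 motif), against 1 each in the Mcm3 and Mcm6 windows. The Mcm2 and Pcna windows, not shown, had 2 GGGCGG words each and no E2F word. That of Cdc6, also not shown, had 1 E2F word and no CCAAT or GGGCGG word. Of the 9 member genes with a RefSeq promoter entry, which leaves out Mcm4, 4 had an E2F word (Mcm5, Mcm6, Mcm7 and Cdc6), 7 had a CCAAT word and 7 a GGGCGG word. Counted as windows, of which Mcm7 has 2, the numbers were 4, 8 and 8 of 10. Over all 32851 promoter windows of the same length, 1.86% held an E2F word, 33.8% a CCAAT word and 32.7% a GGGCGG word. Of the 10 member windows only 4 overlap no annotated gene span, and those of Mcm5, Mcm7 and Cdc6 overlap the span of their own gene. The Cdc6 window and 1 of the 2 Mcm7 windows lie wholly within that span, not before it. A heat shock element of 3 inverted units was in 0.466% of all windows and in 0 of the 9 member genes. In Cdc45, the window lies within the span of the neighbouring gene Ufd1, and it held 1 CCAAT word and no E2F word. Only exact words were counted, and these matches describe letters in a window only.

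After heat shock, 9 of the 10 genes had at least 2-fold higher RPKM in chromatin, each with a counting interval above 1. For Ccne1 the log2 ratio was 0.10 with an interval that includes 1, and it was -0.55 when each library was rescaled to the same RPKM sum. Over all 15486 genes with enough reads, 21.3% were higher by 2-fold or more, 17.4% lower by as much, and 50.3% had a ratio above 1. The median log2 ratio was 1.34 for the 10 genes and 0.01 for all genes. Together the 10 genes held 4947 reads in unstressed chromatin (0.0269% of the total) and 13947 after heat shock (0.0714%). In cytoplasm their share was lower after heat shock, at 0.0463% (3842 reads) and 0.0333% (3712 reads).

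**Figure D1:**
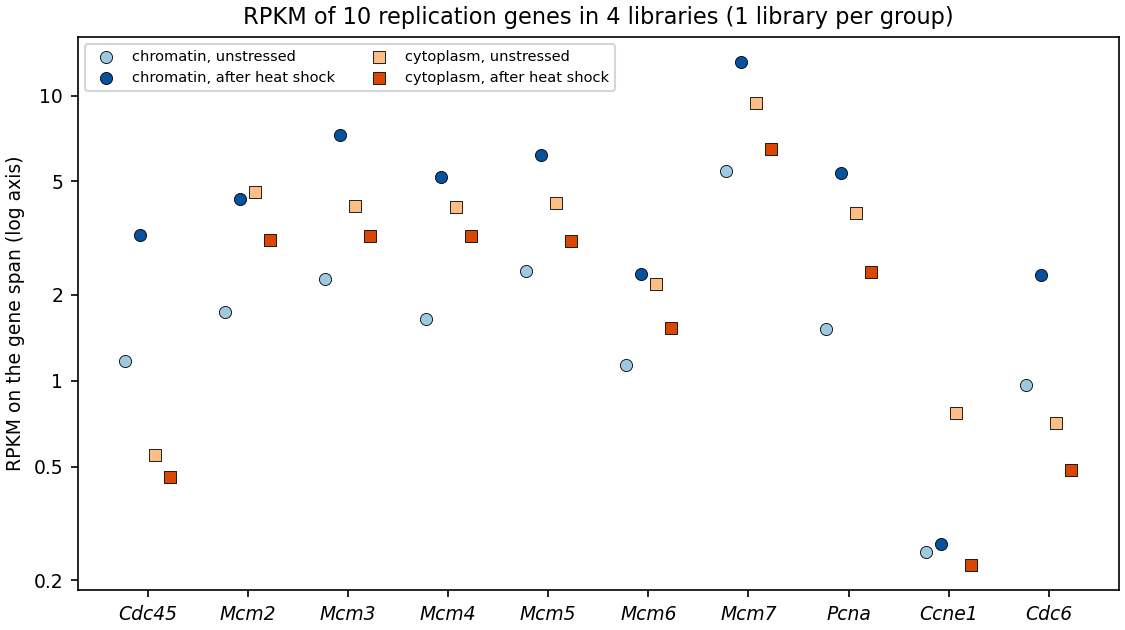
RPKM on the gene span (log axis) of each gene in the 4 libraries, with circles for chromatin, squares for cytoplasm and darker fill for heat shock. In 9 genes the dark circle lies well above the light one, while in Ccne1 both circles lie together at 0.251 and 0.268, and in all 10 genes the dark square lies below the light one.

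The 6 genes of the MCM ring, the core of the replicative helicase, were all higher in chromatin after heat shock on the deposited scale. All 6 were lower in cytoplasm. Of all genes, 50.3% were higher in chromatin and 80.5% lower in cytoplasm. With all genes centred on their median, the ring genes turned to higher in cytoplasm. Mcm7 (ENSMUSG00000029730, RefSeq span chr5:138164583-138172111) had RPKM values of 5.42 in unstressed chromatin, 13.1 in chromatin after heat shock, 9.44 in unstressed cytoplasm and 6.51 in cytoplasm after heat shock. These values rest on 780, 2009, 614 and 568 reads. Chromatin after heat shock was the highest of the 4 libraries for Mcm7 and unstressed chromatin the lowest. The Mcm7 span also holds the microRNA genes Mir25, Mir93 and Mir106b and overlaps 91 bp of Ap4m1, and the part of reads from these was not tested.

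Mcm3 (ENSMUSG00000041859, RefSeq span chr1:20802966-20820312) had RPKM values of 2.27 and 7.28 in chromatin, and 4.10 and 3.21 in cytoplasm (each pair without and after heat shock). Its chromatin ratio, 3.21-fold, was the highest in the ring, with an exact 95% counting interval of 2.96 to 3.49. For Mcm4 (ENSMUSG00000022673) the values were 1.65 and 5.18 in chromatin and 4.05 and 3.21 in cytoplasm. The chromatin ratios of Mcm3 and Mcm4 (3.15-fold, 2.82 to 3.52) could not be separated at this depth: the ratio of the folds had an interval of 0.886 to 1.17. All intervals cover counting error only, since copies made by PCR cannot be told from separate molecules here and each group is 1 library.

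Mcm5 (ENSMUSG00000005410, RefSeq span chr8:75109468-75128439) stood at 2.42 and 6.19 RPKM in chromatin, a 2.56-fold difference (2.36 to 2.77), and at 4.21 and 3.09 in cytoplasm. Mcm2 (ENSMUSG00000002870) had 1.74 and 4.33 RPKM in chromatin, 2.49-fold (2.24 to 2.77), and 4.59 and 3.11 in cytoplasm. Mcm6 (ENSMUSG00000026355, RefSeq span chr1:128331575-128359705), the ring gene with the longest span (28075 bp), was at 1.13 and 2.37 RPKM in chromatin and at 2.19 and 1.54 in cytoplasm. Its chromatin ratio of 2.09-fold (1.90 to 2.31) was the lowest in the ring, and its interval reaches below 2-fold. The ratio of Mcm7 (2.42-fold, 2.23 to 2.63) exceeded it by a factor of 1.16 (1.02 to 1.32).

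In chromatin the ring folds differed by more than counting error in most pairs. Of their 15 pairs, 11 had a ratio of folds whose interval left out 1, across folds of 2.09 to 3.21. With 1 library per group, differences between libraries are not covered by these intervals. In cytoplasm the same genes spanned 0.678-fold to 0.791-fold, and 0 of 15 pairs could be separated in this way. The highest and lowest ring folds differed 1.54-fold in chromatin and 1.17-fold in cytoplasm, with at least 408 and 454 reads per gene and library behind them. The most were 2467 reads in chromatin and 661 in cytoplasm, so pairs were harder to separate in cytoplasm. Whether the spread itself differs between the fractions was not tested.

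Cdc45 (ENSMUSG00000000028), the helicase activator that joins the ring when origins fire, had 1.17 RPKM in unstressed chromatin (677 reads) and 3.24 after heat shock (1996 reads). The cytoplasm held 0.547 RPKM (143 reads) and 0.459 (161 reads). The chromatin value was 2.77-fold higher after heat shock (2.54 to 3.03), and the cytoplasmic value 0.839-fold, with an interval of 0.665 to 1.06 that includes 1. In chromatin 15.3% of all genes had a higher ratio than Cdc45, and in cytoplasm 28.0%. Set against the other 9 genes in chromatin, its fold was lower than those of Mcm3 and Pcna, higher than those of Mcm6, Mcm7 and Ccne1, and not separable from those of Mcm2, Mcm4, Mcm5 and Cdc6. In cytoplasm it could be separated only from Ccne1, whose fold was lower by a factor of 2.86 (1.65 to 5.05). The Cdc45 span overlaps the lncRNA gene Gm52240 over 1687 bp (5.35% of the span) and Ufd1 over 237 bp, and how the authors treated reads there is not given in the sources used here. The part of these overlaps in the result was not tested.

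Cdc6 (ENSMUSG00000017499, RefSeq span chr11:98907709-98923942), the loader that brings the ring to origins, had 0.965 RPKM (286 reads) in unstressed chromatin and 2.35 (742 reads) after heat shock. The cytoplasmic values were 0.710 (95 reads) and 0.484 (87 reads). Cdc6 was 2.44-fold higher in chromatin (2.12 to 2.81) and 0.682-fold in cytoplasm (0.504 to 0.922), and both ratios lay among those of the ring genes.

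Pcna (ENSMUSG00000027342, RefSeq span chr2:132249286-132253180) encodes the sliding clamp. Its RPKM was 1.52 (116 reads) and 5.36 (435 reads) in chromatin, and 3.86 (133 reads) and 2.40 (111 reads) in cytoplasm. The chromatin ratio was 3.53-fold (2.87 to 4.36) and the cytoplasmic ratio 0.622-fold (0.479 to 0.806). The Pcna ratio in chromatin, the highest of the 10, was not separable from that of Mcm3, the next in order.

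Ccne1 (ENSMUSG00000002068, RefSeq span chr7:38097984-38107490), which encodes cyclin E1, the partner of Cdk2 at entry into S phase, stood apart from the other 9 genes in both fractions. It had 0.251 RPKM (44 reads) and 0.268 (50 reads) in chromatin, and 0.770 (61 reads) and 0.226 (24 reads) in cytoplasm. The chromatin values differed 1.07-fold (0.698 to 1.64), so a difference was not detectable at this depth, although the interval's upper end lies below the lowest fold of the other genes, 2.09 for Mcm6. In cytoplasm Ccne1 was at 0.293-fold (0.175 to 0.477), or 3.41-fold lower, and 97.0% of all genes had a higher ratio. Between Ccne1 and the next gene, the folds differed by 1.96 in chromatin (Mcm6, 1.26 to 3.03) and by 2.12 in cytoplasm (Pcna, 1.21 to 3.79).

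**Figure D2:**
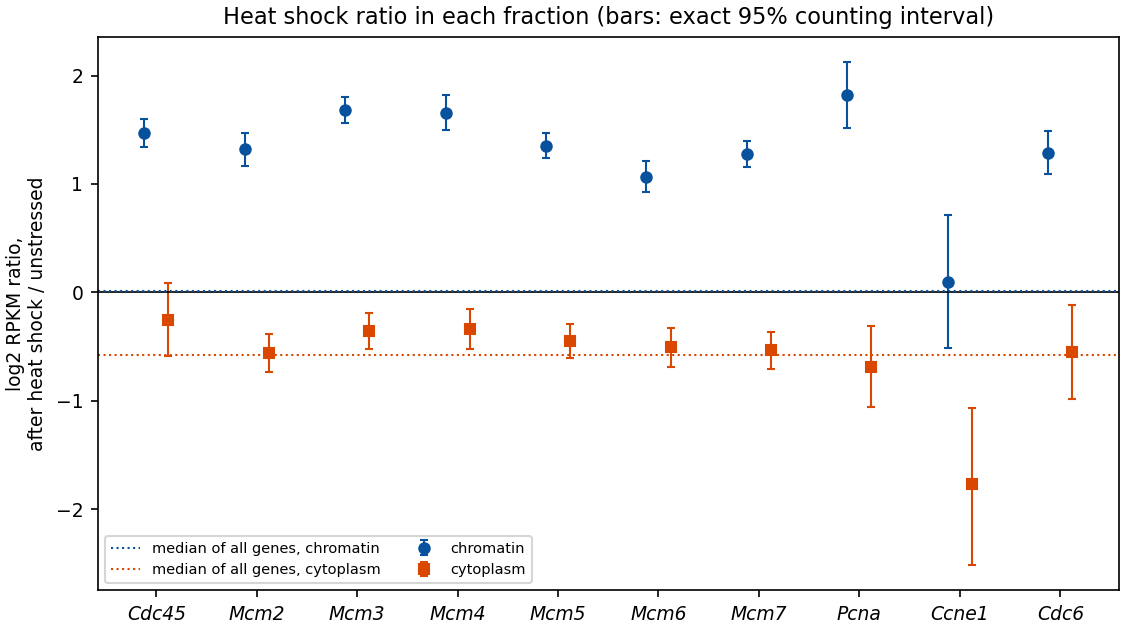
Log2 RPKM ratio after heat shock against unstressed for each gene, in chromatin (circles) and cytoplasm (squares), with exact 95% counting intervals and dotted lines at the medians of all genes. In chromatin 9 genes lie between 1.06 and 1.82 and Ccne1 at 0.10, and in cytoplasm 9 genes lie near the median of all genes and Ccne1 at -1.77.

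In cytoplasm after heat shock, all 10 genes had lower RPKM on the deposited scale, 9 of them with an interval below 1, and 1 (Ccne1) was at least 2-fold lower. Of 10763 genes compared, 80.5% had a ratio below 1, 22.0% were lower by 2-fold or more and 9.56% higher. The median log2 ratio was -0.52 for the 10 genes and -0.58 for all genes, so the lower cytoplasmic values were close to the shift of the whole library. Relative to that median, 8 of the 10 genes were higher, by up to 0.33 for Cdc45, Pcna was lower by a difference of -0.11 and Ccne1 by one of -1.19. This count rests on the filter: it was 3 of 10 with no minimum of reads and 2 of 9 with 1 RPKM added. With all genes centred on their median, the direction of the cytoplasmic median of the 10 genes turned, to 0.0568.

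Chromatin ratios also moved with span and with cytoplasmic level over all genes. Genes with spans of 1 to 5 kb had a median log2 chromatin ratio of 0.38, those of 5 to 20 kb 0.03, and those of 20 to 100 kb -0.11. Pcna lies in the first of these classes, the ring genes other than Mcm6 in the second together with Cdc6 and Ccne1, and Cdc45 and Mcm6 in the third. Among genes at 2 to 5 RPKM in unstressed cytoplasm, the class of Pcna and the ring genes other than Mcm7, the median was 0.30, and 17.6% were at least 2-fold higher in chromatin. Among genes at 0.5 to 1 RPKM there, which include Cdc45, Cdc6 and Ccne1, it was -0.02 and 8.41%. Each of the 10 genes had a chromatin ratio above the median of its span class and of its class by cytoplasmic level. The part of span and cytoplasmic RNA in the ratios was not tested.

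The scale of the libraries bears on the count in chromatin. With each library rescaled to the same RPKM sum, the median of all genes shifted by -0.64. Of the 10 genes, 3 stayed at least 2-fold higher, against 2109 of all 15486 genes. The median log2 ratio of the 10 genes was 0.69 on this scale. Ccne1 was at -0.55 there. With 1 RPKM added to each value, Ccne1 was left out by the filter and 5 of the other 9 genes were at least 2-fold higher. Of all 4635 genes kept by that filter, 481 were.

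**Figure D3:**
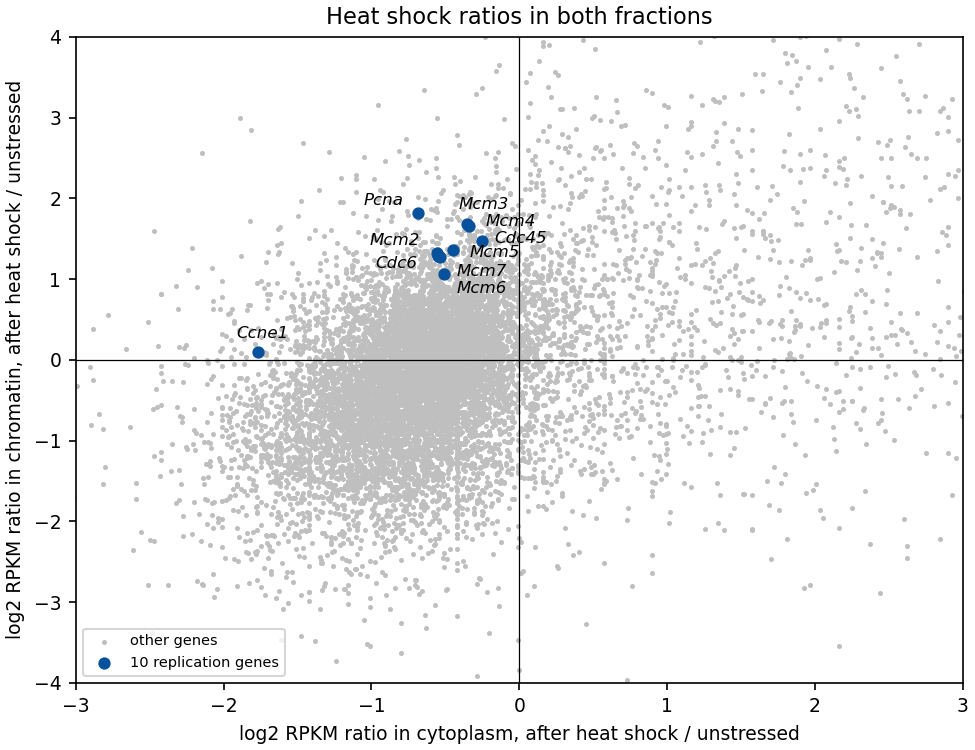
Each point is 1 of 10496 genes with both ratios, with the log2 heat shock ratio in cytoplasm on the x axis and in chromatin on the y axis; 273 genes lie outside the axes. Of the 10 replication genes (blue), 9 lie together above 1 in chromatin and below 0 in cytoplasm, and Ccne1 lies apart to the left.

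Cdc45 led to the list through its values in the 2 fractions. At least 2-fold higher in chromatin and below 1-fold in cytoplasm were 9 of the 10 genes, or 8 of the other 9 without Cdc45, against 5.33% of the 10496 genes with both ratios. This count rests on the same contrast that led to the list and is given as a description. The heat shock ratio in chromatin exceeded that in cytoplasm by at least 2-fold in all 10 genes, against 25.1% of all genes, and the reverse held in 0 of the 10, against 9.98%. For spans of 1 to 5, 5 to 20 and 20 to 100 kb, the share with such an excess in chromatin was 42.4%, 31.1% and 19.5%. On the deposited scale, ratios above 1 in chromatin and below 1 in cytoplasm were seen in all 10, against 31.9%, but in 9 at the same RPKM sum and in 2 (Pcna and Ccne1) with each ratio centred on the median of all genes. The stricter pattern, with at least 2-fold in chromatin, was kept by Mcm3, Mcm4 and Pcna at the same RPKM sum. With that centring only Pcna kept it. The share of all genes with either pattern was counted on the deposited scale only. The excess of the chromatin over the cytoplasmic ratio was 5.67-fold for Pcna (4.04 to 7.95), 4.11-fold for Mcm3 (3.56 to 4.74), 3.30-fold for Cdc45 (2.57 to 4.24) and 2.98-fold for Mcm6 (2.53 to 3.50), the lowest. Ccne1, at 3.64-fold (1.87 to 7.14), lay within the range of the others, since its lower cytoplasmic value stood against a chromatin value near 1-fold. On the log2 scale the median excess was 1.85 for the 10 genes and 0.44 for all genes. It stayed between 1.26 and 1.89 under the other settings.

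In unstressed cells, 8 of the 10 genes had lower RPKM in chromatin than in cytoplasm, against 15.4% of all genes, and at the same RPKM sum 0 of the 10 were lower (median log2 ratio 0.77). Over all 12524 genes the median ratio was 1.79 on the log2 scale. At least 2-fold lower were 4 genes (Mcm2, Mcm4, Pcna and Ccne1), against 7.19% of all genes, and 1 gene, Cdc45, was at least 2-fold higher, against 68.8%. These shares moved with span. For spans of 1 to 5, 5 to 20 and 20 to 100 kb, 28.0%, 6.18% and 1.18% were at least 2-fold lower. At least 2-fold higher were 38.4%, 52.5% and 83.8%. The class medians were 0.24, 1.10 and 2.05 (log2), and Cdc45 and Cdc6 lay below those of their own classes. The part of span in these ratios was not tested. The ring genes ran from 0.379-fold (Mcm2, 0.335 to 0.428) to 0.574-fold (Mcm5, 0.518 to 0.637). Cdc45 at 2.14-fold (1.78 to 2.58) and Cdc6 at 1.36-fold (1.07 to 1.73) were on the chromatin side, and both could be separated from every ring gene and from each other. Cdc45 was still below the median of all genes, with 67.1% of genes at a higher ratio, and for the ring genes this share was 91.7% to 94.8%.

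After heat shock the order of Cdc45 and Cdc6 over the others was kept, but all 10 genes stood higher in chromatin than in cytoplasm on the deposited scale, against 87.7% of all genes. At least 2-fold higher were 6 of them, against 74.8% of 14681 genes, and 0 were at least 2-fold lower, against 6.27%. For spans of 1 to 5, 5 to 20 and 20 to 100 kb the higher share was 53.0%, 66.8% and 85.8%. Cdc45 reached 7.06-fold (6.01 to 8.35) and Cdc6 4.86-fold (3.89 to 6.14), and these 2 genes alone lay above the median of all genes (2.12 on the log2 scale). Ring genes ran from 1.39-fold for Mcm2 (1.26 to 1.54) to 2.27-fold for Mcm3 (2.08 to 2.48), with Pcna at 2.23-fold (1.81 to 2.78). For Ccne1 the ratio of 1.19-fold (0.716 to 2.02) includes 1. Both fraction comparisons use the same 4 libraries as the heat shock comparisons and restate the same reads from the other side. Their directions depend on the scale: with all genes centred on their median, the log2 ratio of the 10 genes had a median of -2.69 in unstressed cells and -1.11 after heat shock, where 2 of the 10 (Cdc45 and Cdc6) stayed above 0.

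**Figure D4:**
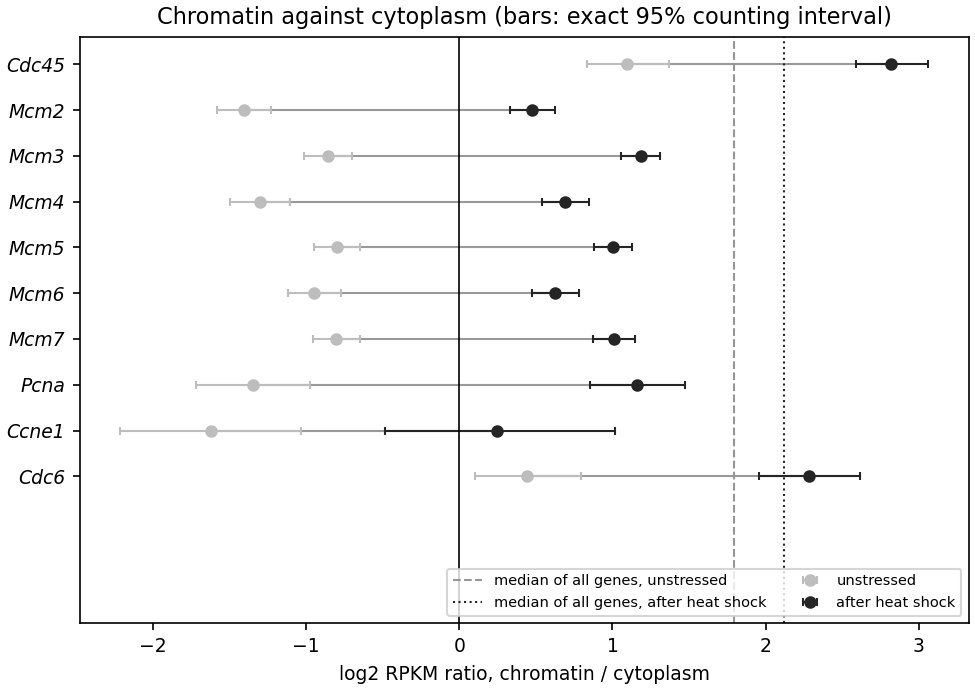
Log2 RPKM ratio of chromatin to cytoplasm for each gene, unstressed (grey) and after heat shock (black), with exact 95% counting intervals and vertical lines at the medians of all genes. Every gene lies further to the right after heat shock, and Cdc45 and Cdc6 lie to the right of the other 8 in both conditions.

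Likeness to Cdc45 and to Mcm2 was measured as the distance between the 3 log2 ratios (both heat shock ratios and the unstressed fraction ratio) over 8235 genes with at least 20 reads in every library. The gene nearest to Cdc45 was ENSMUSG00000064127, at a distance of 0.04, with a chromatin ratio of 1.48 and a cytoplasmic ratio of -0.25 (log2). None of the 5 genes nearest to Cdc45, or of the 5 nearest to Mcm2, was one of the list. The closest of the list to Cdc45 was Cdc6, in place 151, while the ring genes lay in places 2913 to 5181. Most of that distance lay in the unstressed fraction ratio, at 1.10 for Cdc45 and -1.40 to -0.80 for the ring genes (log2). In chromatin the heat shock ratios were 1.47 for Cdc45 and 1.06 to 1.68 for the ring genes. In cytoplasm they were -0.25 and -0.56 to -0.34. To Mcm2 the closest was Mcm4, in place 31, and the other ring genes and Pcna lay in places 54 to 112.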

How the data were processed

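RNA-seq of chromatin and cytoplasm was analysed, with 1 library per group. The authors deposited 1 RPKM value per Ensembl gene, with no line for a gene that had no read. The submitters' processing notes name cutadapt, STAR and GRCm38, with no version. What counted the reads, on which annotation and with what use of strand is not given in the sources used here.

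Library totals were the common divisors of inverse RPKM values (20000 random pairs), and reads and length per gene the smallest whole numbers giving the values in all 4 libraries. For Mcm4 the recovered length was 6752 bp, and 2 times this equals its RefSeq span, so its reads and length were multiplied by 2. Only the members were checked in this way. Other genes kept the smallest whole numbers, so their reads in the filter and lengths in the span classes can be too small. On simulated data all totals were recovered.

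Plain RPKM ratios were taken for genes with at least 20 reads over both libraries and at least 1 in each. Intervals are exact 95% Clopper-Pearson, or exact conditional odds ratio intervals for ratios of folds. Members, lists and rules were chosen with earlier results of these data known, and the classes by span and cytoplasmic level after seeing the data. All 10 members are named; neighbours are the 5 nearest to Cdc45 and Mcm2. The 80 pathway and 27 marker genes listed could not be matched, since the reference table pairs 0 Ensembl identifiers with names. The computations ran in Python 3.11.15 (scipy 1.17.1, numpy 2.4.6, pandas 2.3.3).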

Additional observations from a re-analysis of the deposited data

Results flagged for a closer look

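On the deposited scale, the heat shock ratio of each of the 10 genes lay above 1 in chromatin and below 1 in cytoplasm, and with 1 library per group this difference was not tested. The log2 ratio in chromatin minus that in cytoplasm was 1.72 for Cdc45, 1.88 for Mcm2, 2.04 for Mcm3, 1.99 for Mcm4, 1.80 for Mcm5, 1.57 for Mcm6 and 1.81 for Mcm7. It was 2.50 for Pcna, 1.87 for Ccne1 and 1.84 for Cdc6. On the deposited scale 31.9% of all genes had such opposite directions, and this share was not counted on the other scales. For Cdc45 in cytoplasm and for Ccne1 in chromatin, the counting interval of the ratio includes 1. At the same RPKM sum the opposite directions held in 9 genes, without Ccne1 (-0.55 in chromatin), and with all genes centred on their median in 2, Pcna and Ccne1.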

How the results depend on the processing

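No paired analysis was possible because each group holds 1 library, and no library could be left out. The chromatin heat shock count of 9 genes was 5 with 1 RPKM added and 3 at the same RPKM sum (median log2 ratio 0.69). Over all genes the counts were 481 of 4635 and 2109 of 15486. Ccne1 turned to -0.55 at the same sum. In cytoplasm 8 of the 10 genes, other than Pcna and Ccne1, turned above 0 with either median. The count of 1 gene at least 2-fold lower was 0 with 1 RPKM added, and the median turned to 0.0568 with the median of all genes, and to 0.0620 with that of genes of 5 to 50 kb, set to 0. With 1 RPKM added, 110 of 4505 genes were at least 2-fold lower in cytoplasm. For chromatin against cytoplasm in unstressed cells, the higher count was 0 with 1 RPKM added, 2 at the same RPKM sum and 0 with either median set to 0 or the 10 highest genes left out. The lower count was 1, 0, 9 with either median and 8 without the 10 genes. Of all 12524 genes, 11381 were at least 2-fold higher and 247 lower at the same RPKM sum. The numbers were 3016 and 3412 with the median of all genes, and 3926 and 2796 with that of 5 to 50 kb. Without the 10 genes they were 6127 and 1688. With 1 RPKM added they were 1460 and 529 of 4512 genes. The median of the 10 members was 0.77 at the same RPKM sum, -2.69 with the median of all genes and -2.40 with that of 5 to 50 kb. At the same RPKM sum all 8 genes below 0 turned: Mcm2 to 0.27, Mcm3 to 0.81, Mcm4 to 0.37, Mcm5 to 0.87, Mcm6 to 0.72, Mcm7 to 0.87, Pcna to 0.32 and Ccne1 to 0.0485. With the 2 medians Cdc45 turned to -0.70 and -0.40 and Cdc6 to -1.35 and -1.05, and without the 10 genes Cdc6 turned to -0.39. After heat shock, the count higher in chromatin was 2 with 1 RPKM added, 10 at the same RPKM sum, 0 with either median and 2 without the 10 genes, and the lower count was 6 and 4 with the medians. Of all 14681 genes, 13156 were at least 2-fold higher at the same RPKM sum and 8596 without the 10 genes. With the medians, 3346 and 4026 were higher and 4002 and 3537 lower. With 1 RPKM added, 2096 of 4575 genes were higher. The median of the 10 members was 2.26 at the same RPKM sum, then -1.11 and -0.93 with the 2 medians set to 0. With these medians Mcm2 turned to -1.64 and -1.46, Mcm4 to -1.43 and -1.24, Mcm6 to -1.49 and -1.30, Ccne1 to -1.87 and -1.69, Mcm3 to -0.94 and -0.75, Mcm5 to -1.12 and -0.93, Mcm7 to -1.11 and -0.92, and Pcna to -0.96 and -0.77. Without the 10 genes Mcm2 turned to -0.33, Mcm4 to -0.11, Mcm6 to -0.17 and Ccne1 to -0.56. The excess of the chromatin over the cytoplasmic heat shock ratio had a median of 1.42, 1.44, 1.26 and 1.29 with 1 RPKM added, the same RPKM sum and the 2 medians. Changes in scale or pseudocount shift these values by construction. The other 72 counts and medians stayed within 1.5 times, or within 1 SD of the 10 genes, and every listed alternative was run. Depth limits Ccne1 most, with 24 to 61 reads per library.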
